A study of Mus musculus with 12 samples.

Results

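The genes described here are the ligand Ihh and the core of the machinery that receives its signal: the receptors and binding proteins Ptch1 and Hhip, the transducer Smo, the cytoplasmic regulator Sufu and the transcription factors Gli1, Gli2 and Gli3. These 8 genes, taken by name, belong to 18193 genes that the array names by a symbol, and 20 of its 45101 probe sets measure them. The signals came from tibiae of CD1 mouse embryos at embryonic day 15.5, without treatment, which were cut by hand into 3 segments by their appearance. Zone I is the end piece of the bone, where cartilage cells rest or divide; zone II is the piece next to it, where they enlarge; and zone III is the shaft in the middle, where the oldest enlarged cells meet mineral. Segments of all embryos of a litter were pooled, 4 litters were used, and 4 arrays per zone, lettered A to D, gave 12 arrays in all. A segment cut by hand can hold several kinds of cell, so each value is an average over a mixture.

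Hedgehog proteins are secreted signals. Without ligand, Ptch1 keeps Smo inactive, and Gli2 and above all Gli3 are processed into repressors. Ligand binding releases Smo, which lets full-length Gli proteins escape Sufu and activate transcription, and Gli1, Ptch1 and Hhip are themselves among the genes switched on in responding cells. In the growth plate Ihh is made by prehypertrophic chondrocytes and acts on neighbouring proliferating chondrocytes and perichondrium, where it keeps cells dividing, maintains parathyroid hormone-related protein at the bone ends and drives osteoblast formation.

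The start regions of 4 genes are shown because their transcripts peaked in different zones: Ihh and Ptch1 in zone II, Gli3 in zone I and Hhip in zone III. The sequences come from RefSeq on build GRCm38.p6 and run from 250 bases before to 50 bases after the start of the gene, 5′ to 3′ on the strand of the gene. Ihh lies on the minus strand at chr1:74951623-74951922, Ptch1 on the minus strand at chr13:63565686-63565985, Gli3 on the plus strand at chr13:15463473-15463772 and Hhip on the minus strand at chr8:80057959-80058258. Capitals mark letters of a searched motif, on either strand.
Ihh: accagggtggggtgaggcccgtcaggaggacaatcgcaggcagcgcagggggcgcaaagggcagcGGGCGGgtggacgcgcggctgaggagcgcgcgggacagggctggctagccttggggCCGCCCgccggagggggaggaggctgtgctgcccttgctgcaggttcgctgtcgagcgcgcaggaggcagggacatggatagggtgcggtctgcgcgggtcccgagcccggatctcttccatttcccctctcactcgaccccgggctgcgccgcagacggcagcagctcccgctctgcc
Ptch1: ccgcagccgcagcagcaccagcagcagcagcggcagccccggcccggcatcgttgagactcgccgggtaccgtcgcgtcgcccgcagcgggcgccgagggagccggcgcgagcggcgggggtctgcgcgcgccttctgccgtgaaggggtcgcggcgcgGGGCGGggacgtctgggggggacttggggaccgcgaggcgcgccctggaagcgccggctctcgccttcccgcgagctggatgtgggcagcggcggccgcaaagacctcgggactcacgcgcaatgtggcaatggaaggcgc
Gli3: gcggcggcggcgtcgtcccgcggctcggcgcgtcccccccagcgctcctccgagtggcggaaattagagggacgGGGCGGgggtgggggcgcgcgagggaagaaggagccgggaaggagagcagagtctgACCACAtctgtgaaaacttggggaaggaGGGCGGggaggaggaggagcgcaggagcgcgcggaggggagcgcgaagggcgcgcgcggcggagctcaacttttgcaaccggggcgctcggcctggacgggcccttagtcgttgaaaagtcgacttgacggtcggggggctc
Hhip: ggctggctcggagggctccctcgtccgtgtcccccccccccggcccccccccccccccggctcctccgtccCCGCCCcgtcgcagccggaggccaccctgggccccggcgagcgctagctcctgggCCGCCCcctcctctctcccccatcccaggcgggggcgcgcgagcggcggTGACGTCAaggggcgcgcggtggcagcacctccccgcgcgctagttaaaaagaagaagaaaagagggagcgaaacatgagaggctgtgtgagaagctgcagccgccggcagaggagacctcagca
The motifs searched were the Gli site GACCACCCA, the Runx site TGTGGT, the Sox site ACAATGG, the cAMP response element TGACGTCA and the GC box GGGCGG, none of which overlapped another in these windows. A start region was found for 7 of the 8 members. The Gli site was in 0 of the 7 windows and in 0.253% of 32851 mouse windows of the same length. The GC box was in 6 of the 7, in every one but that of Smo, and in 35.7% of all windows, and the members' windows had a GC content of 56.3% to 76.3% against a median of 52.7%. The Runx site was found in Gli3 alone among the members and in 16.8% of all windows, and the cAMP response element in Hhip alone, 75 bases before the start, and in 1.79% of all windows. The Sox site was in 0 of the 7 and in 3.66% of all windows. These are matches of letters and say nothing about binding.

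Ihh rose steeply from zone I to zone II and fell again in zone III, while Smo and the 3 Gli genes were highest in zone I and Hhip was highest in zone III. For each gene the probe set with the highest mean log2 signal was used, and differences were taken from a limma fit over all 12 arrays with Benjamini-Hochberg adjustment over 22255 probe sets; a difference was called at an adjusted p below 0.05. From zone I to zone II, 2 of the 8 members rose and 6 fell, where 16% of 11808 tested genes rose and 25.4% fell. From zone II to zone III, 3 rose, 2 fell and 3 did not pass, against 30.8% of genes higher and 22.7% lower. Between zone I and zone III, 2 were higher in zone III, 4 were lower and 2 did not pass, against 21.6% higher and 21.7% lower. Hhip is among the members higher in zone III in both comparisons. It passed the filter through zone III alone, so its direction there was fixed. The median log2 difference of the members in these 3 comparisons was -0.79, 0.24 and -0.32, and that of all tested genes was -0.09, 0.08 and -0.01. In a piece of whole tissue, fewer cells of a type and less RNA per cell cannot be told apart. Of the 19 called differences, 18 had zones whose arrays did not overlap. The share of such differences among all called genes was not counted, so this is no trait of the members.

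**Figure D1:**
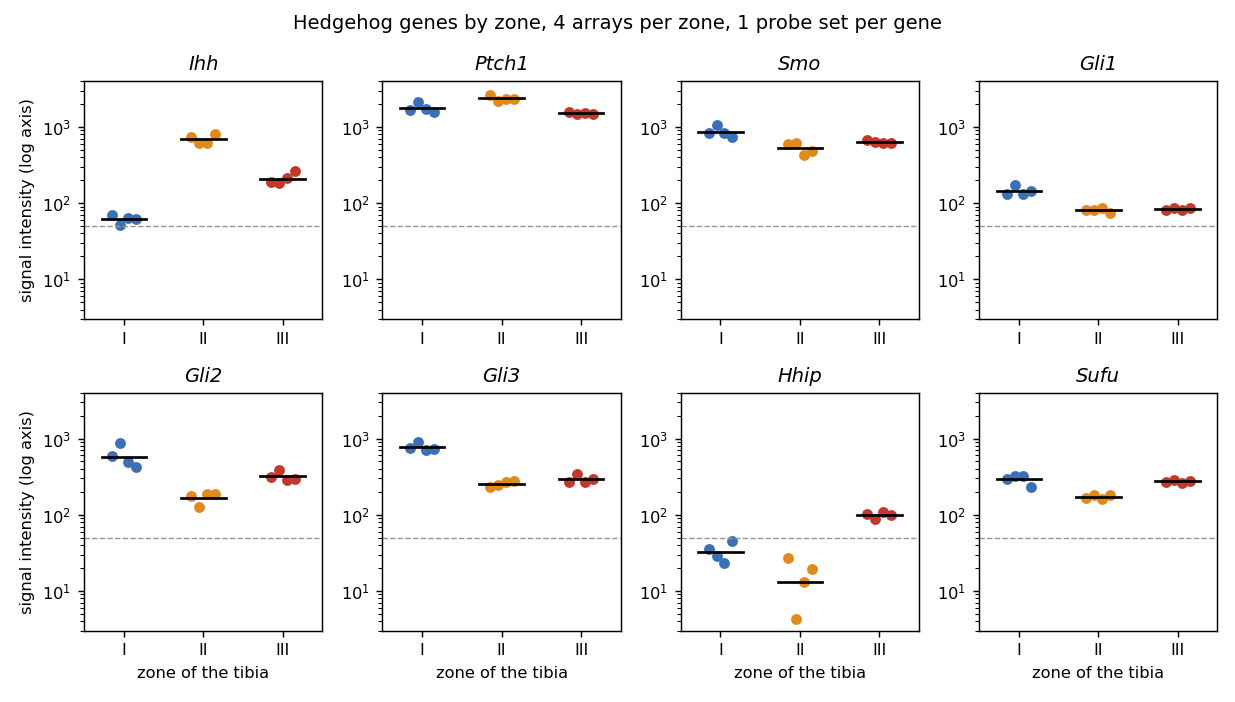
Signal intensity (log axis) of the 8 hedgehog genes in zones I, II and III, by the probe set with the highest mean log2 signal. Points are single arrays (A to D from left to right, n = 4 per zone), black lines are geometric means, and the dashed line marks the signal of 50 used as a filter; Ihh stands out in zone II and Hhip in zone III, whereas Gli1 and Gli3 stand out in zone I.

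Ihh, the ligand of the growth plate, gave signals of 69.4, 51.5, 63.6 and 61.4 on arrays A to D of zone I. In zone II the signals were 743, 623, 608 and 811. In zone III they were 191, 185, 212 and 261. The 3 zones did not overlap, and zone III lay between the other two on every array. Ihh was 11.3-fold higher in zone II than in zone I (log2 difference 3.50 ± 0.15 SE, limma adjusted p = 1.5e-08). It then fell by 1.72 ± 0.15 on the log2 scale into zone III (adjusted p = 1.4e-06). Zone III nevertheless stayed 3.44-fold above zone I (1.78 ± 0.15, adjusted p = 1.4e-06). Ihh was measured by a single probe set. All 3 differences kept their call and direction under every one of the 26 alternative settings. Within the 3 fluidics runs in which the arrays were processed, the zone II rise was 3.64, 3.28 and 3.73 on the log2 scale. By contrast with the arrays, the study reported that in qRT-PCR Ihh stayed at higher levels in zone III. It called for in situ hybridization and immunohistochemistry to place Ihh.

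Ptch1, the receptor that holds Smo inactive and a target of the pathway, was the other member that peaked in zone II, by a much smaller step. Its signals on arrays A to D were 1687, 2106, 1730 and 1556 in zone I. Zone II gave 2656, 2220, 2311 and 2339. Zone III gave 1577, 1467, 1511 and 1476. The lowest zone II array lay above the highest array of zones I and III, and zones I and III overlapped. Ptch1 was 1.35-fold higher in zone II than in zone I (log2 difference 0.43 ± 0.11, limma adjusted p = 0.0096). It fell by 0.66 ± 0.11 into zone III (adjusted p = 4.0e-04). Between zones I and III the difference was -0.22 (95% confidence interval -0.47 to 0.02, adjusted p = 0.14). The zone II rise passed no longer after quantile normalization (0.18, adjusted p = 0.25), after centring on ribosomal protein genes (0.13, adjusted p = 0.42) or without the 3 arrays lettered A (0.36, adjusted p = 0.085), although its sign stayed the same. The fall into zone III also missed the threshold with ribosomal centring (-0.22, adjusted p = 0.16). The other 2 of its 3 probe sets stayed below 50 in every zone.

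Hhip, a membrane protein that binds hedgehog ligands and is induced by the pathway, ran in the opposite direction to Ihh between zones II and III. On arrays A to D its signals were 36.0, 29.1, 23.3 and 45.2 in zone I. In zone II they were 27.4, 4.28, 13.2 and 19.3. In zone III they were 103, 88.6, 109 and 98.8. Every array of zones I and II was below 50, so Hhip entered the test through zone III alone and its differences from zone III had to be positive. All zone III arrays lay above all others, and zones I and II overlapped. As zone II lay below the filter, the sizes of its differences are rough: the fitted one to zone III was 7.56-fold (log2 2.92 ± 0.44, limma adjusted p = 1.4e-04). Zone III was 3.07-fold above zone I (1.62 ± 0.44, adjusted p = 0.011). The lower signal in zone II than in zone I (-1.30 ± 0.44, adjusted p = 0.035) lay in the range where both zones were dim, and it missed the threshold in 9 of 25 alternatives, with adjusted p up to 0.13. On the scale of log2(signal + 16), which damps such dim values, the rise into zone III was 1.90 (adjusted p = 2.5e-06) and the step from zone I to zone II was -0.66 (adjusted p = 0.019).

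Smo, the membrane protein that carries the signal inwards, was highest in zone I. Its signals on arrays A to D were 833, 1049, 823 and 727 in zone I. Zone II gave 603, 615, 422 and 490. The zone III arrays read 682, 642, 607 and 612. Zone I lay above both other zones, which overlapped each other. Smo fell by 0.69 ± 0.15 on the log2 scale from zone I to zone II (limma adjusted p = 0.0029). The difference between zones II and III did not pass (0.27, 95% confidence interval -0.05 to 0.59, adjusted p = 0.15). Zone III was lower than zone I by a margin close to the threshold (-0.42 ± 0.15, adjusted p = 0.038), and this call was lost in 11 of 26 alternatives, among them the fit with fluidics run as a block (-0.35, adjusted p = 0.069). It was also lost without array A, B or C of zone I or without any single array of zone III, with an adjusted p of 0.052 to 0.105.

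Sufu, which holds Gli proteins back in the cytoplasm, had a trough in zone II. Its signals on arrays A to D were 298, 318, 327 and 231 in zone I. In zone II they were 168, 182, 159 and 184. In zone III they were 270, 289, 259 and 277. Zone II lay below all arrays of the other zones, and zones I and III overlapped. Sufu fell by 0.75 ± 0.12 from zone I to zone II (limma adjusted p = 4.6e-04). It rose by 0.66 ± 0.12 into zone III (adjusted p = 6.5e-04). Zones I and III did not differ by the test (-0.09, 95% confidence interval -0.35 to 0.18, adjusted p = 0.60). These calls rest on 1 of 3 probe sets: a dimmer one that also passed the filter gave -0.03 (adjusted p = 0.92) and 0.14 (adjusted p = 0.56) for the same steps, and the remaining one stayed below 50.

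Gli1, the Gli factor whose transcription follows pathway activity most directly, was highest in zone I and did not follow Ihh into zone II. Its signals on arrays A to D were 130, 172, 133 and 144 in zone I. In zone II they were 81.2, 82.1, 86.5 and 75.1. On the zone III arrays they were 81.6, 85.2, 81.7 and 87.2. Zone I stood apart, and zones II and III covered the same range. Gli1 fell by 0.83 ± 0.11 on the log2 scale from zone I to zone II (limma adjusted p = 9.8e-05). The difference between zones II and III was 0.05, which did not pass (95% confidence interval -0.19 to 0.29, adjusted p = 0.74). Zone III was 1.72-fold lower than zone I (-0.78 ± 0.11, adjusted p = 1.1e-04). Gli1 was measured by a single probe set, and both falls from zone I were called under all 26 alternatives.

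Gli2, the main activator of the pathway, had its lowest signals in zone II and partly recovered. Its signals on arrays A to D were 582, 872, 493 and 419 in zone I. In zone II they were 175, 128, 186 and 186. In zone III they were 317, 384, 289 and 290. The 3 zones did not overlap, with zone II lowest. Gli2 fell by 1.77 ± 0.21 from zone I to zone II (3.41-fold, limma adjusted p = 4.4e-05). It rose 1.91-fold into zone III (0.93 ± 0.21, adjusted p = 0.0028). It remained below zone I there (-0.84 ± 0.21, adjusted p = 0.0070). All 3 calls were kept under all 26 alternatives.

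Gli3, the main repressor, was highest in zone I and stayed low. Its signals on arrays A to D were 744, 895, 711 and 728 in zone I. Zone II gave 232, 245, 269 and 277. Zone III gave 273, 343, 271 and 292. Zone I stood far above the other zones, which overlapped. Gli3 was 3.01-fold lower in zone II than in zone I (-1.59 ± 0.12, limma adjusted p = 1.2e-06). The step into zone III did not pass (0.20, 95% confidence interval -0.06 to 0.46, adjusted p = 0.19). Zone III was 2.61-fold lower than zone I (-1.39 ± 0.12, adjusted p = 2.0e-06).

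**Figure D2:**
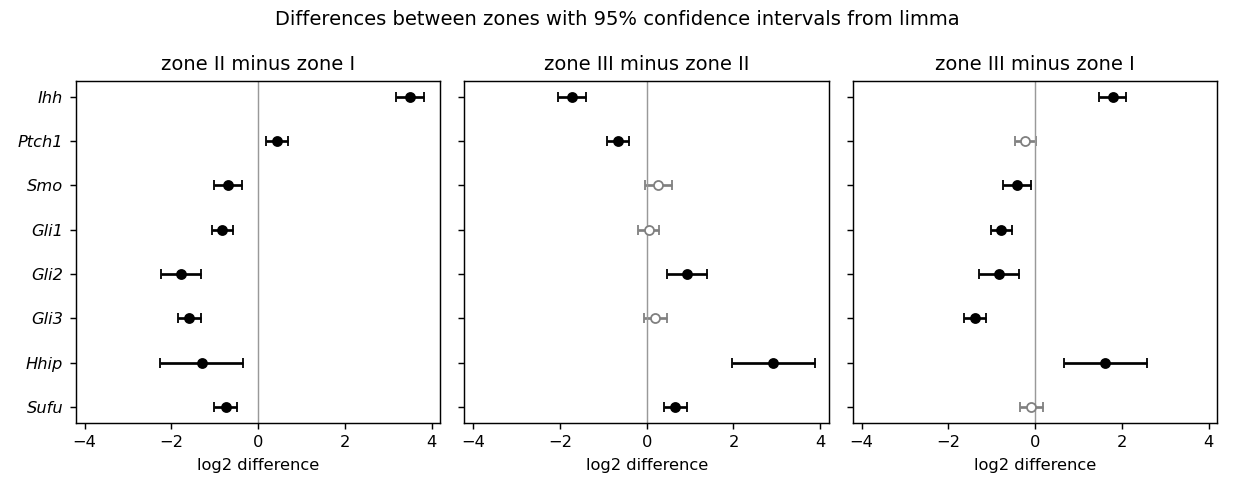
Log2 difference between zones for each of the 8 genes, with 95% confidence intervals from limma (12 arrays, 4 per zone); filled black points have an adjusted p below 0.05 and open grey points do not. From zone I to zone II only Ihh (3.50) and Ptch1 (0.43) lie to the right of 0, and from zone II to zone III these same 2 genes alone lie to the left (-1.72 and -0.66).

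The genes measured by more than 1 passing probe set were checked by each of them. In all, 15 of the 20 probe sets reached a mean signal of 50 in a zone, and 5 genes had more than 1 such probe set. The second probe set of Smo fell by 0.86 ± 0.22 from zone I to zone II (limma adjusted p = 0.0087) and was lower in zone III than in zone I by 0.82 (adjusted p = 0.011). That of Gli3 fell by 1.37 and gave 0.09 into zone III, close to the values of the first. That of Gli2, with a mean signal of 119 ± 55.0 (SD, n = 4) in zone I, fell by 2.21 ± 0.45 into zone II, and its step into zone III (1.04, adjusted p = 0.072) and its difference between zones I and III (-1.17, adjusted p = 0.056) did not pass. All 4 probe sets of Hhip rose from zone II to zone III, by 2.25 to 2.95 on the log2 scale. Each of the 4 passed the filter through zone III alone, so a rise was built in. From zone I to zone II they split: 2 were lower, by 1.30 and 1.37, and 2 did not pass, at -0.23 and -0.12. Calls thus differed between probe sets for Hhip from zone I to zone II, for both steps of Sufu, and for Gli2 into zone III and between zones I and III, where its second probe set had the same sign and did not pass. Probe sets of a gene can bind different transcript ends, and which transcripts these bind was not tested.

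**Figure D3:**
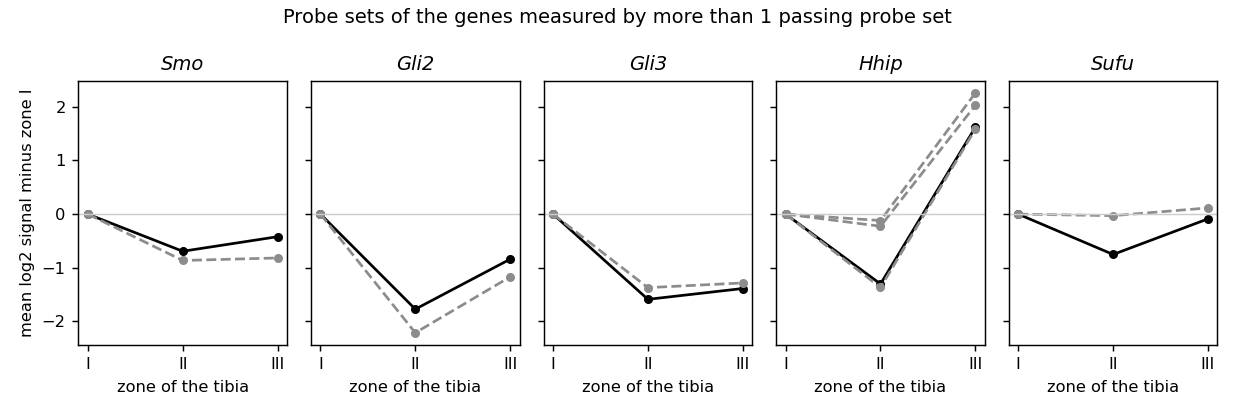
Mean log2 signal in zones I, II and III minus that in zone I, for each probe set that passed the filter, in the 5 genes with more than 1; solid black lines are the probe set used for the gene and dashed grey lines the others (means of 4 arrays). The lines of Smo, Gli2 and Gli3 run together, all 4 lines of Hhip rise into zone III, as the filter required, and the dashed line of Sufu stays near 0.

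Ptch1, Gli1 and Hhip are commonly read together as signs that a cell responds to hedgehog, and here each had its highest signal in another zone: Ptch1 in zone II, Gli1 in zone I and Hhip in zone III. To compare them free of array scaling, the difference of 2 log2 signals was taken within each array. These pairs were chosen after the different peaks had been seen, so the values are a description with no test. Ptch1 minus Gli1 was 3.61 ± 0.12 (SD, n = 4 arrays), 4.87 ± 0.15 and 4.17 ± 0.09 in zones I to III, and no zones overlapped. Hhip minus Gli1 was -2.15 ± 0.46, -2.63 ± 1.19 and 0.25 ± 0.16 in the 3 zones, with overlap of zones I and II. Hhip minus Ptch1 was -5.76 ± 0.53, -7.50 ± 1.07 and -3.92 ± 0.11. Since Hhip passed the filter through zone III alone, a higher Hhip difference there was built in, and the values of zones I and II rest on Hhip signals below 50, where 2 of its 4 probe sets gave no called fall. Quantile normalization, which is not linear in the signal, brought the Ptch1 minus Gli1 step from zone II to zone III from -0.70 to -0.08. Levels of different probe sets cannot be set against each other, so only the change of these differences between zones can be read.

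**Figure D4:**
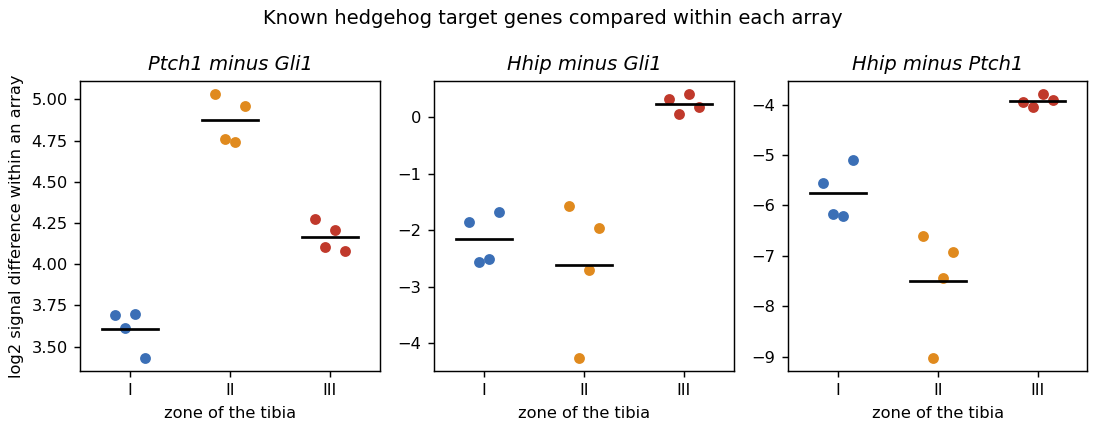
Difference between the log2 signals of 2 hedgehog target genes on the same array, by zone; points are arrays A to D from left to right, black lines are means of 4 arrays, and each panel has its own axis. Ptch1 minus Gli1 is highest in zone II (mean 4.87), and both differences with Hhip are highest in zone III (means 0.25 and -3.92).

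Other genes of the pathway were taken from 4 lists of 60 genes in all, of which 56 had a probe set of their own and 49 passed the filter. From zone I to zone II, 4 rose, 19 fell and 26 did not pass (median log2 difference -0.25), where 16% of all tested genes rose and 25.4% fell. From zone II to zone III, 16 rose, 12 fell and 21 did not pass (median -0.06), beside 30.8% and 22.7% of all genes. Between zones I and III, 9 were higher in zone III, 17 were lower and 23 did not pass (median -0.14), beside 21.6% and 21.7% of all genes. Scube2, Grem1 and Gpr161 passed the filter through zone I alone, so that their falls from zone I were fixed by the filter, and where a zone mean lies below 50 the size of a difference is rough. Scube1, Gpc5, Stk36, Nkx3-2, Foxf2, Foxl1 and Igfbp6 stayed below 50 in every zone. The remaining 4 genes of the lists were not analysed here.

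Among the other ligands and the proteins that release ligand from cells, none of 7 tested genes rose in any comparison. Of all tested genes, 16%, 30.8% and 21.6% rose in the order of comparisons above. In that order 1, 3 and 4 of the 7 fell, beside 25.4%, 22.7% and 21.7% of all genes. The falls from zone I include Scube2, whose direction there was fixed by the filter. Scube2, a secreted helper of ligand release, had mean signals of 104 ± 16.9, 25.2 ± 3.88 and 11.8 ± 1.43 (SD, n = 4) in zones I, II and III. Both later zones lay below 50, so these levels are given without a test. Scube3, a relative of it, went from 350 ± 93.7 and 223 ± 14.1 to 42.7 ± 14.4, a fall of 2.45 from zone II to zone III (limma adjusted p = 4.1e-06). Disp1, the transporter that lets lipid-bearing hedgehog leave the cell, was at 171 ± 36.2, 211 ± 51.4 and 103 ± 15.9, and fell by 1.02 from zone II to zone III (adjusted p = 0.0015). Neither of the other ligands had a called difference between zone II and another zone. The brighter probe set of Dhh was at 66.2, 53.1 and 41.3, lower in zone III than in zone I (-0.73, adjusted p = 0.020). The brighter probe set of Shh was at 206, 265 and 165 with no difference past the threshold. The other probe set of Shh was at only 1.09, 1.51 and 2.78 in zones I to III, and that of Dhh also stayed far below 50. Whether the brighter signal comes from Shh transcripts was not tested.

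At the cell surface, Gas1, Boc and Cdon, co-receptors that help Ptch1 bind ligand, were highest in zone I. Lrp2, of the same list, was at 52.1, 64.4 and 59.9 in zones I to III, with no called difference. Gas1 had mean signals of 1697 ± 160 (SD, n = 4) in zone I, 125 ± 146 in zone II, where the arrays ran from 38.2 to 343, and 470 ± 52.5 in zone III. It fell by 4.37 ± 0.51 into zone II (limma adjusted p = 3.7e-05) and rose by 2.51 ± 0.51 into zone III (adjusted p = 0.0013), with no overlap of zones. Boc went from 694 ± 134 to 112 ± 11.4 and 111 ± 27.6, a fall of 2.61 (adjusted p = 1.2e-06) followed by no called change (-0.05, adjusted p = 0.84). Cdon went from 1219 ± 109 to 311 ± 22.5 and 119 ± 16.1, falling by 1.97 and again by 1.39. From zone I to zone II, 0 of the 8 tested genes of this list rose, 4 fell and 4 did not pass. Of all tested genes, 16% rose and 25.4% fell over this step. Gas1, Boc and Cdon, named here for the largest falls, were among these 4, while Ihh rose. Of the proteoglycans and the enzymes that build their chains, which hold hedgehog at the cell surface, Gpc3 fell by 1.78 from zone II to zone III (1133 ± 166 to 336 ± 77.4, adjusted p = 1.9e-05). Ext1 rose over the same step by 0.85 (389 ± 18.7 to 702 ± 68.3, adjusted p = 4.6e-05), Gpc4 rose by 0.68, and Ext2 fell by 0.46 (adjusted p = 0.039).

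Of 21 tested genes that act between Smo and Gli, 1 was higher and 8 were lower in zone II than in zone I, where 16% of all genes rose and 25.4% fell. From zone II to zone III 8 rose and 2 fell, beside 30.8% and 22.7% of all genes. Arrb1, which codes for a beta-arrestin that can bind Smo and many other receptors, had mean signals of 54.9 ± 5.30, 17.1 ± 6.91 and 157 ± 7.90 in zones I, II and III, and was called higher in zone III than in zone II (limma adjusted p = 4.4e-07), with zone II below 50. Arrb2, the other beta-arrestin, rose over the same step from 59.3 ± 9.74 to 184 ± 18.6 (3.13-fold, adjusted p = 8.9e-07). Dyrk2, a kinase, rose from 260 ± 19.5 to 701 ± 77.8 (2.69-fold, adjusted p = 8.5e-07). Gsk3b, one of the kinases that mark Gli proteins for processing, was the gene that rose from zone I to zone II (315 ± 85.5 to 466 ± 58.9, 0.60, adjusted p = 0.034). Evc, part of a complex at the base of the primary cilium, fell by 0.81 into zone II (133 ± 9.42 to 77.6 ± 19.7, adjusted p = 0.0022). Gpr161, a receptor that restrains the pathway, went from 65.2 ± 2.97 to 26.2 ± 11.6. Tulp3, which brings receptors into the cilium, was lower in zone III than in zone I by 0.55 (adjusted p = 0.020), as was Rab23, a negative regulator, by 0.68 (adjusted p = 0.0015). Spop, an adaptor for Gli degradation, fell by 0.27 from zone II to zone III (adjusted p = 0.048).

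Of 13 tested genes known as further targets of the pathway in some tissues, 3 rose and 6 fell from zone I to zone II, beside 16% and 25.4% of all genes. Ccnd1, Ccnd2 and Mycn had their lowest signals in zone II, as Gli2 did. Ccnd1, which codes for cyclin D1, was at 738 ± 74.3, 248 ± 29.6 and 475 ± 43.7 in zones I, II and III, falling by 1.58 (limma adjusted p = 1.5e-06) and rising by 0.94 (adjusted p = 4.4e-05). Mycn, a transcription factor that promotes proliferation, was at 138 ± 23.2, 33.8 ± 16.1 and 126 ± 35.7, and both steps were called (adjusted p = 1.4e-04 and 1.3e-04). Ccnd2 rose by 1.10 from zone II to zone III (1195 ± 62.7 to 2573 ± 201, adjusted p = 8.3e-06). The antagonists Grem1, which blocks bone morphogenetic proteins, and Sfrp1, which binds Wnt proteins, were highest in zone I: Grem1 went from 179 ± 39.4 in zone I to 32.2 ± 5.43 in zone II, and Sfrp1 was 7.04-fold lower in zone III than in zone I (699 ± 119 to 98.9 ± 13.6, adjusted p = 3.0e-08). Those that rose into zone II with Ihh and Ptch1 were Cdk6 (1.14, adjusted p = 4.0e-04), Bmp4 (0.95, adjusted p = 4.1e-04) and Bcl2 (0.57, adjusted p = 0.0051). Bmp4 and the survival gene Bcl2 fell again in zone III, by 0.75 and 1.55, as Ihh did, and Bmp2 rose there by 1.14 (232 ± 49.4 to 503 ± 59.5, adjusted p = 2.9e-04).

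**Figure D5:**
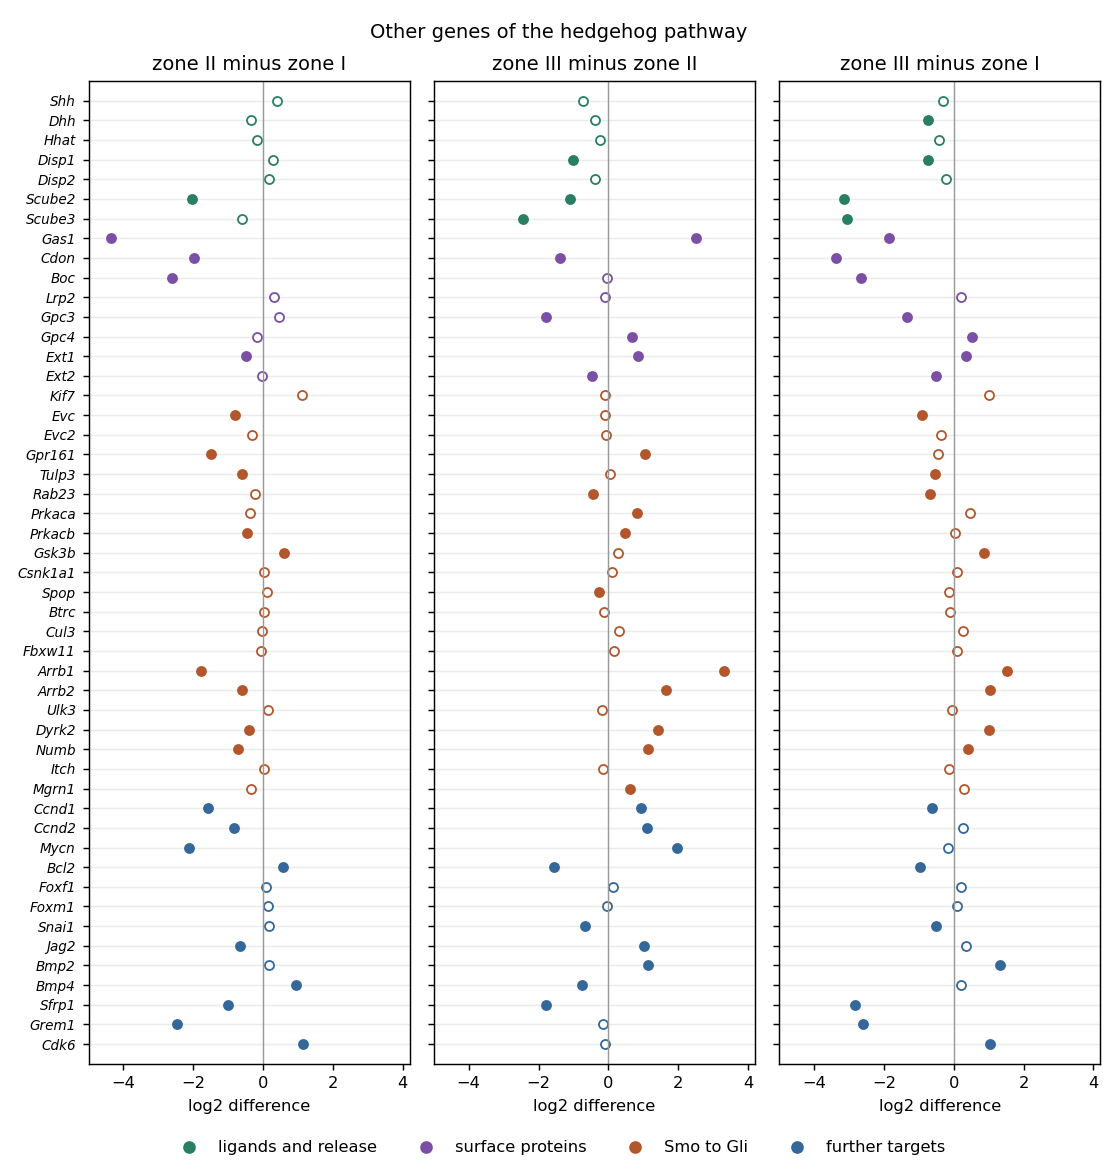
Log2 difference between zones for the 49 tested genes of the 4 other hedgehog lists, coloured by list (ligands and their release, cell surface proteins, steps between Smo and Gli, further targets); filled points have a limma adjusted p below 0.05. Gas1, Boc and Cdon lie furthest left from zone I to zone II among the surface proteins, and Arrb1 lies furthest right from zone II to zone III.

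The genes whose signals ran most like those of each member were found by the root mean square difference of log2 signals, each centred on its own mean, over the 12 arrays and 11807 other genes. This is a description over arrays that share 3 zones, so any gene with the same zone pattern ranks high. For Ihh they were Mcoln3 (0.35), Rhbdl2 (0.35) and Wnt4 (0.36), and for Ptch1 Slc39a7 (0.05), Scd2 (0.09) and Ssr1 (0.09). For Hhip they were Arhgef15 (0.32), Col24a1 (0.37) and Parp12 (0.41). For Gli1 they were Ninj1 (0.08), Atxn1 (0.09) and Phlda1 (0.14), for Gli2 Sft2d2 (0.22), Ccnd1 (0.23) and Ccdc102a (0.24), and for Gli3 Tenm4 (0.14), Kat6b (0.18) and Scn2b (0.19). Smo ran closest to Lipt2 (0.08), Tulp3 (0.12) and Rpia (0.12), and Sufu to B4galt1 (0.10), Msl1 (0.13) and Pdzd8 (0.13). Ihh and Hhip had the loosest neighbours by this measure, in which a gene that varies more also has larger differences. The nearest gene to Ihh rose with it from a mean signal of 29.9 in zone I to 295 in zone II and fell to 68.3 in zone III, and the nearest to Hhip went from 54.7 and 25.1 to 175.

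Marker genes of the cells in each segment moved with these results, and their part in them was not tested. The summed signal of 11 prehypertrophic and hypertrophic markers was 1696 to 1851 on the zone I arrays, 13808 to 15836 in zone II and 12708 to 14959 in zone III, beside the rise of Ihh. The test called 10 of these 11 higher in zone II than in zone I, where 16% of all tested genes rose. Runx3 passed the filter through zone II alone, so its rise was fixed. The sum of 16 perichondrium and fibrous markers was 18615 to 23932, 9922 to 14678 and 16177 to 19031 in the 3 zones. From zone I to zone II, 11 of its 15 tested genes fell, as Gli1, Gli2 and Gli3 did, and 1 rose. Of all tested genes, 25.4% fell and 16% rose over this step. From zone II to zone III 11 rose, as Gli2 did, and 1 fell, beside 30.8% and 22.7% of all tested genes. Gli1 and Gli3 had no called change there. Endothelial markers summed to 1165 to 1955, 437 to 926 and 3901 to 4360 in the 3 zones. Of these genes, 12 of 12 were lower in zone II than in zone I, beside 25.4% of all tested genes. From zone II to zone III, 12 of 12 were higher, as Hhip was, beside 30.8% of all tested genes. Pecam1 and Tie1, like Hhip, passed the filter through zone III alone, so their rises were fixed. Osteoclast markers summed to 13467 to 15906 in zone III against 926 to 2035 in zone II. The test called 10 of 11 higher in zone III, beside 30.8% of all tested genes. Ocstamp, Dcstamp, Calcr, Atp6v0d2 and Oscar passed the filter through zone III alone, so their rises were fixed. Macrophage markers summed to 4304 to 5231 in zone III against 613 to 988 in zone II, with 7 of 7 tested higher, beside the same share. The 7 osteoblast markers with a probe set summed to 164 to 251, 3289 to 4923 and 8128 to 8928. Proliferating chondrocyte markers summed to 26971 to 32316, 39851 to 43557 and 11768 to 14439, and resting and periarticular ones to 3824 to 4422, 1932 to 2948 and 1949 to 2358. No defining marker of these lists was listed at 0, and Pi15 and C1qa stayed below 50 in every zone. Erythroid markers (4 with a probe set, Hba-a1 and Epb42 below 50) summed to at most 401, and epidermal markers (5, with Krt14, Krt1 and Trp63 below 50) to at most 230.

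The arrays lettered A carried the most skeletal muscle signal of their zones, with marker sums of 2466 against 565 to 945 (zone I), 1061 against 321 to 461 (zone II) and 765 against 320 to 648 (zone III; 10 markers, Myh8 below 50). Without these 3 arrays, a choice made after the values were seen, the zone II rise of Ptch1 and the zone III fall of Smo against zone I (-0.47, adjusted p = 0.081) were not called, and the other 17 called differences stayed called in the same direction. Beside Hhip and the other differences with zone III stand the 3′ to 5′ signal ratios of control probe sets, a sign of RNA length: for Gapdh the range was 1.25 to 1.76 outside zone III and 1.98 to 2.28 within it, and for actin 2.09 to 3.23 and 1.70 to 2.02. In zone III the Gapdh ratio was thus higher and the actin ratio lower, so these controls moved in opposite directions. Their part in the zone III differences was not tested. All 19 called differences kept their sign within each of the 3 fluidics runs, each of which held all 3 zones. For the 18 whose zones did not overlap, the sign within a run was fixed in advance. Scaling moved the median of all genes: centring on 44 ribosomal protein genes gave medians of -0.39, 0.52 and 0.13 in the 3 comparisons, and of all calls 12.3%, 86.2% and 63.9% were then higher, against 38.7%, 57.6% and 49.97% as tested here. With median centring these shares were 52.1%, 40.3% and 40.9%. Relative to the median of all genes, Ptch1 stood at 0.52 from zone I to zone II and Ihh at 3.59, and no called difference of a member turned its direction under any scaling.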

How the data were processed

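Total RNA of 12 pooled tibia segments was hybridised to Affymetrix mouse arrays by the authors. The deposited values are linear signal intensities; the submitters' notes name RMA and the study's methods a GC-corrected form of it, but every array has the same mean of 150.0 after trimming 2% at each end while medians run from 32.4 to 43.3, so how these values were made is not settled, and no detection calls or background were used here. Litters were the replicates of the study, but the labels do not tie the letters A to D to litters, so p-values measure the spread between these arrays. Experiment files gave the 3 fluidics runs. Array number limits the precision.

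The values were taken as log2 with nothing added. Control probe sets (64) were left out, and the 22255 probe sets whose zone mean reached 50 somewhere were tested with limma 3.58.1 in R 4.3.3 (lmFit and eBayes, zone as the only term, 12 arrays), with Benjamini-Hochberg adjustment per comparison at 0.05. Genes were named from probe sets with 1 symbol (34945), and the probe set with the highest mean log2 signal stood for a gene. The fit was tested on simulated data. Alternatives changed the filter, scaling, added constant, samples, spread model, blocks and probe set rule. Named are all 8 members, up to 3 called genes per direction of each other pathway list and comparison, and the 3 nearest genes of each member. Shh and Lrp2 were added after their values were seen. The members and lists were chosen with earlier results of these data known. Promoter windows came from RefSeq tables.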

Additional observations from a re-analysis of the deposited data

Results flagged for a closer look

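Of the 24 groups of 4 arrays (8 genes in 3 zones), 1 held an array that stood apart. Gli2 in zone II gave a signal of 128 on array B against 175 to 186 on the other 3 arrays, a gap of 0.835 of the range of the group on the log2 scale, above Dixon's critical value, and of 0.81 on the scale of the signals, below it. Chance flags about 1 in 20 groups of this size. Without this array the fall of Gli2 from zone I to zone II and its rise into zone III were still called.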

How the results depend on the processing

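Over 26 alternatives, 618 values of member differences were recomputed: 588 kept their direction and their side of the threshold, 26 lost and 4 gained a call, and 0 reversed. From zone I to zone II, 1 member was called higher, in place of 2, with quantile normalization, with ribosomal protein centring, with the median over probe sets and without the 3 arrays lettered A, since Ptch1 was then not called or, with the median over its dim probe sets, not tested. From zone II to zone III, ribosomal protein centring gave 6 members higher, in place of 3, as Smo (0.71), Gli1 (0.48) and Gli3 (0.64) passed, and 1 lower, in place of 2; the median of probe sets also gave 1 lower. With a filter at 100 Hhip was not tested, which gave 1 member higher, in place of 2, between zones I and III, 2 higher, in place of 3, from zone II to zone III and 5 lower, in place of 6, from zone I to zone II. With array weights Smo was called higher in zone III than in zone II (0.33, adjusted p = 0.048). Leaving out 1 array at a time gave 5 to 6 members lower from zone I to zone II and 3 to 4 lower in zone III than in zone I, and left the other counts as they were. With the median of probe sets Sufu gave -0.03 and 0.14 for its steps into and out of zone II, and neither passed. The cause of other losses was not tested. With the letter as a replicate block, 2 members were higher and 6 lower in zone II than in zone I, and no member's call changed; the number of all genes called went from 1894 to 1918 higher and from 2995 to 3068 lower. Same-letter arrays deviated together with a correlation above 0.1 in 8 of 12 pairs (-0.13 to 0.26, other pairs -0.30 to 0.23). Of the 12 arrays, 5 correlated best with their own letter in both other zones. These values do not settle whether the letters pair the arrays. The letters were not taken as pairs because no label ties them to litters. Dim signals limit Hhip in zones I and II most.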
